A study of Mus musculus with 13 samples.

Results

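The mevalonate pathway turns acetyl-CoA into squalene, the open-chain precursor of cholesterol, through a fixed order of enzymes. The transcripts of 9 of these enzymes were followed in mouse liver, namely Acat2, Hmgcs1, Mvk, Pmvk, Mvd, Idi1, Fdps, Fdft1 and Ggps1. Every probe whose gene name in the scanner output was one of these symbols was taken, which gave 15 probes among 39429 on the array and 9 genes among 19513 tested. All 15 passed the filter on dim probes. The reductase that makes mevalonate itself is not one of the 9 and is not described here.

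The livers came from female C57BL6 mice 12 weeks old, and each of 13 one-colour arrays (Cy3-labelled cRNA) held the RNA of 1 biological replicate. The ST vehicle group (3 arrays) received the standard diet with vehicle, the HFHS vehicle group (5 arrays) the high fat diet with vehicle, and the ST pollutants group (5 arrays) the standard diet to which 4 pollutants had been added as a mixture. The series' own description can be read as placing the pollutants in the high fat diet, and the sample labels, which place them in the standard diet, were followed. The series text calls HFHS a high fat diet and neither spells out the abbreviation nor gives the composition. The labels do not name the pollutants, the doses, the length of feeding, the feeding state or the hour of sampling. The title presents the design as a comparison of low-dose pollutant exposure with a high fat diet challenge in females.

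In the liver the pathway supplies cholesterol for membranes, lipoproteins and bile acids. Its genes are classic targets of SREBP-2, a membrane-bound transcription factor that is released to the nucleus when sterols in the endoplasmic reticulum are scarce and held back when they are plentiful. Side branches of the pathway make dolichol, ubiquinone and the farnesyl and geranylgeranyl groups that anchor proteins to membranes.

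SREBP binds sterol response elements, and CCAAT boxes, bound by NF-Y, often lie beside them. The promoters below are those of Hmgcs1 and Mvk, which were lower in both treated groups, of Acat2, which was lower under pollutants alone, and of Ggps1, which passed no test. Each run is the 250 bases before the transcription start in RefSeq, build GRCm38.p6, printed 5′ to 3′ on the gene's strand. Capitals mark the letters CACCCCAC, a core of the sterol response element, and CCAAT, each searched on both strands (CCAAT on the other strand reads ATTGG). The windows are chr13:119690101-119690350 (plus strand) for Hmgcs1, chr5:114444019-114444268 (plus strand) for Mvk, chr17:12960726-12960975 (minus strand) for Acat2 and chr13:14063489-14063738 (minus strand) for Ggps1.
Hmgcs1: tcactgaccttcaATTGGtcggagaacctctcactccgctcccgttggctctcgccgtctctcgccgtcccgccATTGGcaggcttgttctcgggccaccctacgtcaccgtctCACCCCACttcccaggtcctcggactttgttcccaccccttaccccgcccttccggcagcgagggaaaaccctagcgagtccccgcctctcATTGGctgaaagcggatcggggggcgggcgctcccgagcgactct
Mvk: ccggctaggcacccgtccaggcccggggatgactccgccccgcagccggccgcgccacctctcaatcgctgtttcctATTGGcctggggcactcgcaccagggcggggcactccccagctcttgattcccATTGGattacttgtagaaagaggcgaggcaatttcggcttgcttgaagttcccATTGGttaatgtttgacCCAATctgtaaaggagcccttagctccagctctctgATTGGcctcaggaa
Acat2: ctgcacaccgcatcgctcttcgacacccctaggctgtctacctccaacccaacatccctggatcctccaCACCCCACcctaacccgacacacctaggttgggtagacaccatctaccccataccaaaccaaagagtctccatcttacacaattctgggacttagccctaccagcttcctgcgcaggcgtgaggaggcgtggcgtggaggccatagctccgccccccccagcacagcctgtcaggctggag
Ggps1: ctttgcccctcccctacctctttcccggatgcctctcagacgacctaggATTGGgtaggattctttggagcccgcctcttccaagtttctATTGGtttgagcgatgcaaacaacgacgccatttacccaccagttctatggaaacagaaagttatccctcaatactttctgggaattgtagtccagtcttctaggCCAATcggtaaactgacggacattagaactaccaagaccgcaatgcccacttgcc
CACCCCAC stood once in the Hmgcs1 window, starting 136 bases before the start, and once in the Acat2 window, starting 181 bases before it. It did not occur in the windows of Mvk, Pmvk, Mvd, Idi1 or Ggps1, and was present in 2.58% of 32851 promoter windows of the same length. CCAAT stood 5 times in the Mvk window, 3 times each in Hmgcs1 and Ggps1, 2 times each in Mvd and Idi1, once in the first of 2 Pmvk windows and not in Acat2, against 33.8% of all windows with at least 1. The letters GGGCGG, a GC box bound by Sp1, occurred in the windows of Acat2, Hmgcs1, Mvk, Mvd and Idi1 and in 32.7% of all windows. The E-box letters CACGTG occurred in none of the windows of these 7 genes, against 6.02% of all. A match of letters is a description, and no match says only that these letters are not in the window. Promoter windows were matched for 7 of the 9 genes, and those of Fdps and Fdft1 were not used here.

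The brightest probes, whose values are given below, lie at mm9 positions chr17:13136482-13136541 for Acat2, chr5:114910540-114910599 for Mvk, chr3:89272867-89272926 for Pmvk, chr8:124957750-124957809 for Mvd, chr13:8891524-8891583 for Idi1, chr3:88897549-88897608 for Fdps and chr13:14144710-14144769 for Ggps1. That of Hmgcs1 lies on the unlocalized sequence 13_random at 114793 to 114852, and that of Fdft1 at chr14:63765750-63769990, where its 60 bases span 4241 and so cross a splice junction. An annotation of mm9 was not used here.

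All levels below are log2 values of the processed signal relative to the 75th percentile of the same array, from the brightest probe of each gene unless another is named, so 1 unit is a doubling. Levels are compared between arrays and never between genes, since probes differ in brightness. The 75th percentile lay between 782 and 1354 intensity units, 62.8% to 69.5% of probes were well above background, and no array had more than 1 saturated probe. Log2 levels of whole arrays correlated between 0.977 and 0.992 within groups and between 0.973 and 0.992 across groups. No array stood apart on that measure. The arrays lay on 5 slides, and ST vehicle arrays were present on slides 1, 2 and 5. Differences were tested with limma over all genes, with Benjamini-Hochberg adjustment, and a gene is said to have risen or fallen where the adjusted p was under 0.05. The number of arrays, above all the 3 ST vehicle arrays that both treated groups are compared with, limits the precision. In whole liver, less RNA per cell and fewer cells of a type cannot be told apart.

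The first question of the design is what the high fat diet changed. In the HFHS vehicle livers 6 of the 9 transcripts fell, Hmgcs1, Mvk, Pmvk, Idi1, Fdps and Fdft1, by 2.15-fold to 4.85-fold, and none rose. Over all genes 0.451% were called lower and 0.236% higher in that comparison. Mvd was 4.52-fold lower with an adjusted p of 0.0677. Acat2 and Ggps1, at the entry to the pathway and on a side branch, had log2 differences of -0.14 and 0.03. For 7 of the 9 genes every HFHS vehicle array was below every ST vehicle array, which held for 5.33% of all genes.

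The other question is how pollutants affected mice kept on standard food. Here 3 transcripts fell, Acat2 by 1.99-fold, Hmgcs1 by 2.63-fold and Mvk by 2.34-fold, and none rose, against 0.441% of all genes called lower and 0.543% called higher. Pmvk, Mvd, Idi1, Fdps and Fdft1 were 1.56-fold to 2.86-fold lower without passing the test. For 8 of the 9 genes, all but Ggps1, the groups did not overlap and the pollutant livers were lower, against 4.4% of all genes. With slide as a block, 5 genes were called for the diet (all but Mvk of the 6) and only Acat2 for the pollutants (limma adjusted p = 0.0344), with Hmgcs1 at 0.0624 and Mvk at 0.0958. The deviations of arrays from their group means over all genes correlated between 0.13 and 0.56 for the 6 pairs of a treated and an ST vehicle array on one slide. Both comparisons use the same 3 ST vehicle arrays, so they are not independent. The median log2 difference of the 9 genes was -1.55 for HFHS vehicle and -1.22 for ST pollutants, beside -0.02 and -0.01 over all genes.

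**Figure D1:**
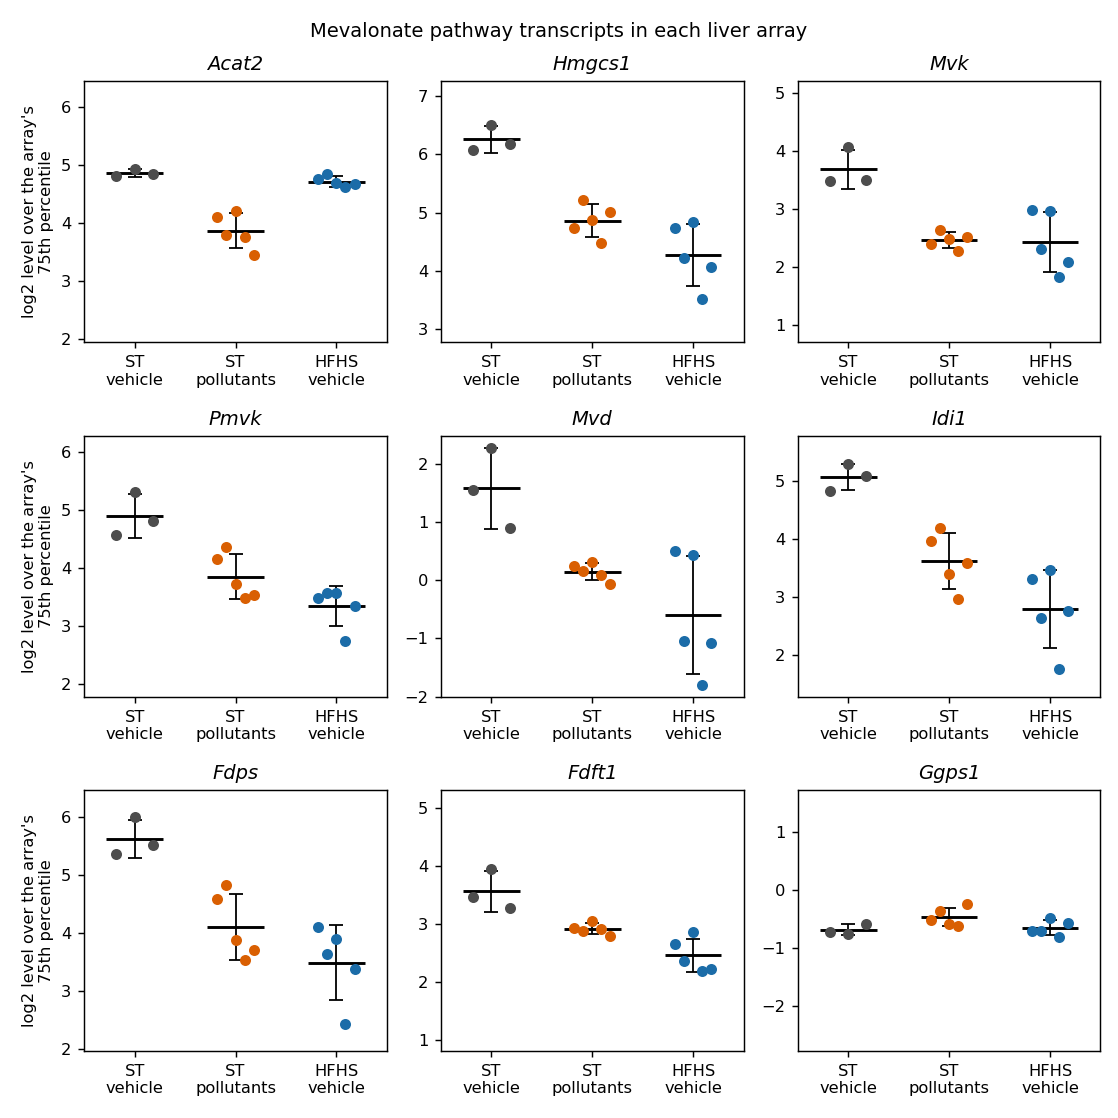
Log2 level over the array's 75th percentile (y axis) of the 9 transcripts in every array of the 3 groups (x axis), with 1 point per array, the group mean as a line and the SD as bars. From Hmgcs1 to Fdft1 the ST vehicle arrays lie above all others, Acat2 is low in the pollutant livers only, and Ggps1 stays between -0.80 and -0.24 in all 13 arrays.

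Acat2 encodes the cytosolic thiolase that joins a pair of acetyl-CoA molecules into acetoacetyl-CoA. Its log2 level was 4.80, 4.93 and 4.84 in the ST vehicle livers, 4.10, 3.80, 4.21, 3.75 and 3.45 in the pollutant livers and 4.76, 4.84, 4.68, 4.61 and 4.66 in the HFHS vehicle livers. All pollutant livers were below all livers of the other two groups, which overlapped with each other. Groups separated in that direction in the direct comparison for 2.74% of all genes. The group means were 4.85 ± 0.07 (SD, n = 3), 3.86 ± 0.30 (SD, n = 5) and 4.71 ± 0.09 (SD, n = 5). The log2 difference between pollutants and ST vehicle was -0.99 ± 0.14 (SE), with a limma adjusted p of 0.0113. HFHS vehicle minus ST vehicle was -0.14, with a 95% interval of -0.46 to 0.17. Set against each other, HFHS vehicle livers had 1.80-fold more Acat2 signal than pollutant livers (log2 difference 0.85 ± 0.12 SE, limma adjusted p = 0.00586). Acat2 was the only one of the 9 genes that passed in this direct comparison, where 1.57% of all genes were called higher and 2.3% lower. On the 5 slides that held both groups the difference ranged from 0.47 to 1.21, always with more signal on the HFHS vehicle array. The call against ST vehicle did not pass with normexp background correction (limma adjusted p = 0.0847), without the arrays of slide 1 (0.0712), with only the 2 groups compared in the fit (0.0816) or with the replicate number as a block (0.0557), while it passed in 21 of 25 alternatives and the log2 difference stayed between -1.08 and -0.88. The direct comparison lost its call with normexp (0.059) and without slide 1 (0.0752).

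Acat3, a neighbouring and closely similar gene, was looked up after the values of Acat2 were seen. It was 1.54-fold lower under pollutants (log2 difference -0.62 ± 0.11 SE, limma adjusted p = 0.0271) and had a log2 difference of -0.14 under HFHS vehicle (adjusted p = 0.780). The direct comparison gave 0.48 ± 0.10 (SE) in favour of HFHS vehicle, with an adjusted p of 0.0183. The 60-base probes of the 2 genes matched at no more than 21 bases without gaps, and whether either probe also measures the other transcript was not tested.

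Hmgcs1 encodes the cytosolic HMG-CoA synthase, which adds a further acetyl unit. Log2 levels were 6.08, 6.51 and 6.18 in ST vehicle, 4.73, 5.22, 4.87, 4.48 and 5.01 in ST pollutants and 4.73, 4.22, 4.83, 3.51 and 4.07 in HFHS vehicle. Every ST vehicle liver lay above every treated liver, and the 2 treated groups overlapped. The log2 difference was -1.98 ± 0.27 (SE) for HFHS vehicle and -1.39 ± 0.27 (SE) for pollutants, with limma adjusted p-values of 0.0115 and 0.0342. The SRE core in its promoter is printed above. Hmgcs1 passed in 22 of 25 alternatives for the diet and in 10 of 25 for the pollutants.

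A dimmer Hmgcs1 probe was well above background on all 3 ST vehicle arrays but on only 1 of 5 arrays in each treated group. It gave log2 differences of -2.34 ± 0.45 (SE) for HFHS vehicle and -1.77 ± 0.45 (SE) for pollutants, with limma adjusted p-values over all probes of 0.0394 and 0.0911. Its signal was thus not well above background on most treated arrays. The 2 probes correlated at 0.976 over the 13 arrays.

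Mvk, mevalonate kinase, carries out the first phosphorylation after the reductase step. It read 3.48, 4.08 and 3.51 in ST vehicle livers, 2.39, 2.64, 2.49, 2.28 and 2.52 in pollutant livers and 2.98, 2.31, 2.97, 1.84 and 2.09 in HFHS vehicle livers (log2 level). The treated groups were both below ST vehicle without overlap, and the pollutant values fell inside the range of the HFHS values. The fold decrease was 2.38 for HFHS vehicle and 2.34 for pollutants, with limma adjusted p-values of 0.0490 and 0.0456. These p-values sit close to the threshold, and Mvk passed in 5 and 9 of 25 alternatives. The difference between the treated groups was -0.03, with a 95% interval from -0.51 to 0.45. A second Mvk probe gave -1.33 ± 0.27 (SE) and -1.31 ± 0.27 (SE) with adjusted p-values over all probes of 0.0546 and 0.0469.

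Pmvk, phosphomevalonate kinase, adds the second phosphate. Its log2 levels were 4.57, 5.31 and 4.80 in ST vehicle, 4.16, 4.35, 3.72, 3.48 and 3.53 in ST pollutants and 3.48, 3.56, 3.57, 2.74 and 3.34 in HFHS vehicle. Neither treated group reached the lowest ST vehicle liver. Pmvk fell 2.93-fold in HFHS vehicle (limma adjusted p = 0.0185) and was 2.06-fold lower under pollutants (adjusted p = 0.0780). HFHS vehicle replicate 4 was the lowest of all 13 arrays. The second Pmvk probe, which correlated with the first at 0.993, gave log2 differences of -1.65 ± 0.27 (SE) and -1.12 ± 0.27 (SE).

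Mvd decarboxylates mevalonate diphosphate to isopentenyl diphosphate, the building block of all isoprenoids. Its log2 levels were 1.56, 2.29 and 0.90 in ST vehicle, 0.24, 0.15, 0.32, 0.09 and -0.06 in ST pollutants and 0.50, -1.04, 0.44, -1.80 and -1.07 in HFHS vehicle. The groups did not overlap with ST vehicle, but the spread was wide, with SDs of 0.69 in ST vehicle and 1.02 in HFHS vehicle against 0.15 under pollutants. The log2 differences of -2.18 ± 0.48 (SE) and -1.43 ± 0.48 (SE) did not pass (limma adjusted p = 0.0677 and 0.221). Without HFHS vehicle replicate 1 or 3, the 2 highest of their group, the diet difference passed.

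Idi1, the isomerase that converts isopentenyl diphosphate to its reactive partner dimethylallyl diphosphate, had the largest diet difference of the 9. Log2 levels were 4.83, 5.29 and 5.09 in ST vehicle, 3.96, 4.18, 3.39, 2.97 and 3.60 in ST pollutants and 3.31, 2.65, 3.47, 1.77 and 2.77 in HFHS vehicle. All treated livers lay below the ST vehicle livers, with the treated groups overlapping. Idi1 fell 4.85-fold in HFHS vehicle (log2 difference -2.28 ± 0.36 SE, limma adjusted p = 0.0149). Under pollutants it was 2.73-fold lower with an adjusted p of 0.0841, and passed only without HFHS vehicle replicate 4 in the fit. Its paralogue Idi2 had log2 differences of -0.05 and -0.00 in the 2 comparisons.

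Fdps, farnesyl diphosphate synthase, makes the branch point metabolite of the pathway. Its log2 level was 5.36, 5.99 and 5.51 in ST vehicle, 4.59, 4.83, 3.88, 3.53 and 3.71 in ST pollutants and 4.10, 3.64, 3.90, 2.44 and 3.38 in HFHS vehicle. No treated liver reached the ST vehicle range, and pollutant livers 1 and 2 were above every HFHS vehicle liver. Fdps fell 4.38-fold in HFHS vehicle (limma adjusted p = 0.0261). The pollutant difference of 2.86-fold had an adjusted p of 0.0869 and, like that of Idi1, passed only without HFHS vehicle replicate 4.

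Fdft1, squalene synthase, joins a pair of farnesyl groups and commits them to sterols. It read 3.47, 3.95 and 3.27 in ST vehicle, 2.93, 2.88, 3.06, 2.91 and 2.80 in ST pollutants and 2.66, 2.36, 2.86, 2.20 and 2.23 in HFHS vehicle (log2 level). The pollutant livers formed a narrow band under the ST vehicle livers, with HFHS vehicle replicate 3 inside that band and the other 4 HFHS vehicle livers below it. Fdft1 fell 2.15-fold in HFHS vehicle (limma adjusted p = 0.0149) and was 1.56-fold lower under pollutants (adjusted p = 0.113). These were the smallest differences among the 7 enzymes from Hmgcs1 to Fdft1. A dim second probe, well above background on 3 of 3 ST vehicle, 3 of 5 pollutant and 2 of 5 HFHS vehicle arrays, gave -0.84 ± 0.32 (SE) and -0.49 ± 0.32 (SE) with adjusted p-values of 0.291 and 0.634.

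Ggps1 extends farnesyl to geranylgeranyl diphosphate, which feeds protein prenylation rather than sterols. Its log2 level was -0.71, -0.76 and -0.57 in ST vehicle, -0.51, -0.35, -0.58, -0.62 and -0.24 in ST pollutants and -0.70, -0.70, -0.48, -0.80 and -0.56 in HFHS vehicle. The 3 groups overlapped. The diet difference was 0.03, with a 95% interval from -0.20 to 0.26, which does not reach the smallest decrease among the 7 enzymes (-1.10). The pollutant difference was 0.22, with an interval from -0.01 to 0.45. The other Ggps1 probes gave 0.02 and -0.07 for the diet and 0.06 and -0.11 for the pollutants, so the 3 probes did not share a sign.

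**Figure D2:**
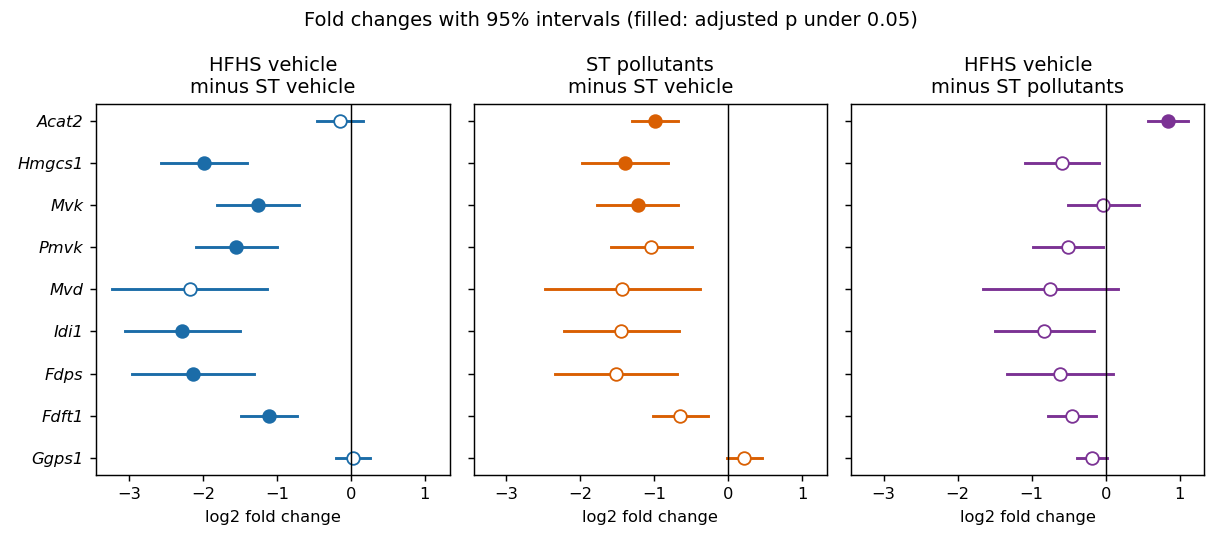
Log2 fold change of each gene (points) with its 95% confidence interval (lines) in the 3 comparisons; filled points have an adjusted p under 0.05. In the first panel 6 points are filled, in the second 3, and in the direct comparison Acat2 alone, at 0.85.

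Across the 15 probes, 8 were called lower in HFHS vehicle and 4 under pollutants, against 0.42% and 0.428% of all probes. The sign was negative for 13 of 15 in each comparison. The 8 include the dim Hmgcs1 probe. That probe and the dim Fdft1 probe passed the filter only through the ST vehicle arrays, where their means were highest. Their lower signal in the treated groups is therefore no separate support. Probes of one gene measure the same transcript and are not replicates.

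**Figure D3:**
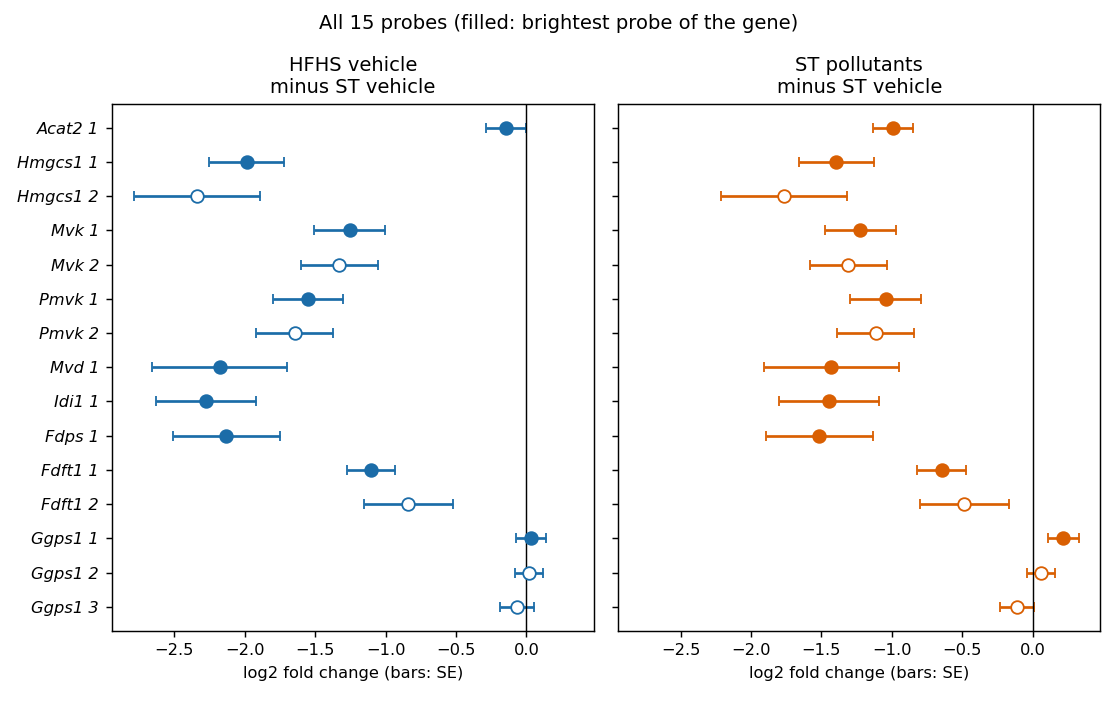
Log2 fold change of all 15 probes (points; bars are SE) for HFHS vehicle and ST pollutants against the same ST vehicle arrays, in pathway order. For Hmgcs1, Mvk, Pmvk and Fdft1 the second probe lies on the same side of 0 as the brightest, and the 3 Ggps1 probes lie around 0. The second probes of Hmgcs1 and Fdft1 passed the filter only through the ST vehicle arrays, so their side of 0 is no separate support.

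The 7 enzymes from Hmgcs1 to Fdft1, set apart after the values were seen, shared 1 order of group means: ST vehicle highest, then pollutants, then HFHS vehicle. Pollutants and HFHS vehicle were neighbours in that order whose values overlapped for each of the 7, and 4.19% of all genes were lower in HFHS vehicle than under pollutants without overlap. In the direct comparison, 0 of the 7 passed in limma, with differences from -0.83 (Idi1, 95% interval -1.50 to -0.16) to -0.03 (Mvk). Of all 9 genes, 4 were lower at an unadjusted p under 0.05, against 10.6% of all genes. At this number of arrays the intervals are wide, and for Mvk the sign turned in 5 of 25 alternatives.

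Comparing arrays of one slide only, 24 of 27 differences of the 9 genes from ST vehicle were negative for the diet and 24 of 27 for the pollutants, with Ggps1 positive on each slide. The sign is fixed for the genes whose groups do not overlap, so the sizes are given as a description. For the 7 enzymes slide 1 gave diet differences between -1.52 and -0.50, slide 2 between -3.33 and -1.59 and slide 5 between -2.32 and -1.05. For the pollutants the ranges were -1.35 to -0.41, -2.13 to -0.96 and -1.80 to -0.47. Slide 1 thus held the smallest diet differences. HFHS vehicle against pollutants within slides was negative in 32 of 45 cases over the 9 genes, with Acat2 positive on each of the 5 slides. For the 7 enzymes, set apart after the values were seen, it was negative in 28 of 35 cases. All 7 were negative on slides 2, 4 and 5, and 4 and 3 of 7 on slides 1 and 3. The genes of a slide come from the same pair of arrays and are not independent cases. A share over all genes was not computed within slides.

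**Figure D4:**
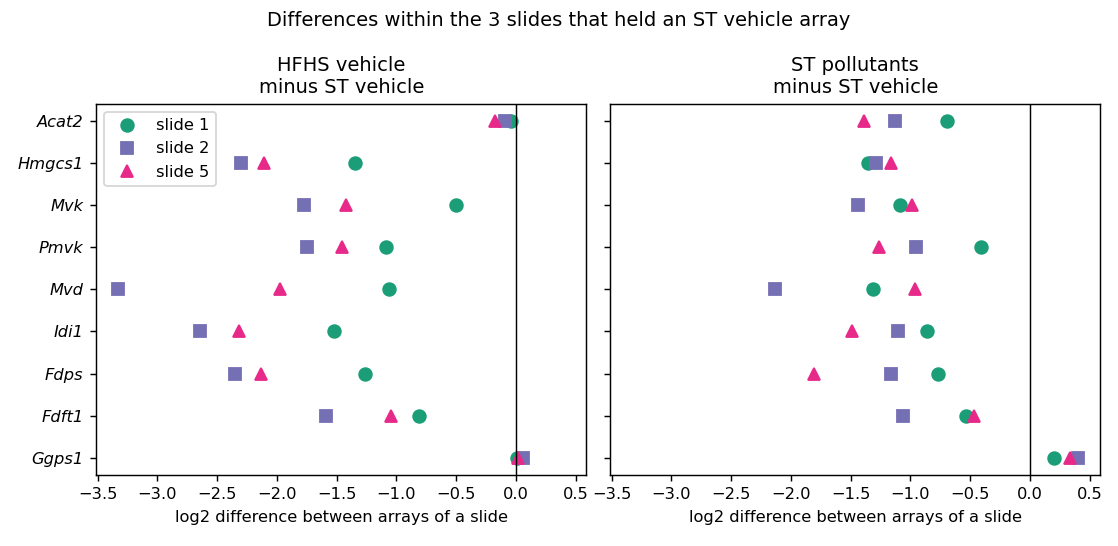
Log2 difference between arrays of one slide (x axis) for each gene, on the 3 slides that held an ST vehicle array; each symbol is 1 pair of arrays. From Hmgcs1 to Fdft1 every symbol is left of 0 in both panels, Acat2 is left of 0 by 0.69 to 1.38 under pollutants, and Ggps1 is at or right of 0.

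Within groups, single livers were low or high for many of the 9 transcripts, which was described by rank and not tested. HFHS vehicle replicate 4 had the lowest value of its group for 9 of 9 genes, while it was lowest for 19.5% of all genes tested. ST vehicle replicate 2 was the highest of its group for 8 of 9 genes, against 32% of all genes. Among pollutant livers, replicate 4 was lowest for 6 genes and replicate 5 for 3, against 18.9% and 13.7% of all genes. Replicate 5 had the lowest Acat2 and the highest Ggps1 of that group. HFHS vehicle replicates 3 and 1 were the highest of their group for 5 and 3 genes, against 19.9% and 26.2% of all genes.

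**Figure D5:**
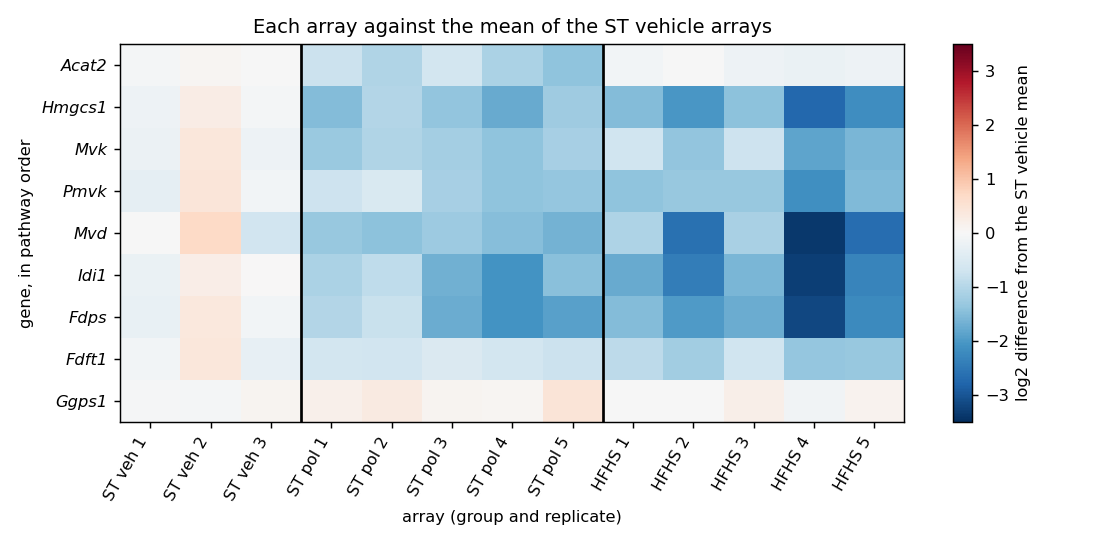
Log2 difference of each array (columns, by group and replicate) from the mean of the ST vehicle arrays for the 9 genes (rows, in pathway order), with blue for lower and red for higher. The column of HFHS vehicle replicate 4 is the deepest blue in its group, the Acat2 row is clearly blue only in the pollutant columns, and the Ggps1 row is pale throughout.

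Because there were 3 ST vehicle arrays, the calls depended on each of them. Without ST vehicle replicate 1, 2 or 3, the diet comparison called 1, 1 and 2 of the 9 genes, Hmgcs1 each time and Fdft1 once, and the pollutant comparison called 1 each time, Acat2. Without the arrays of slide 1 none of the 9 was called in any comparison, and the 7 enzymes then had diet differences of -2.52 to -1.20 and pollutant differences of -1.76 to -0.70. Without HFHS vehicle replicate 1 or 3 the diet comparison called 7 genes, and without replicate 4 the pollutant comparison called 5. The pollutant comparison called 1 gene, Acat2, without HFHS vehicle replicate 2 and without ST pollutants replicate 1, 3, 4 or 5.

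Over the 13 arrays, the level of each of the 7 enzymes correlated with the mean of the other 8 genes at r between 0.902 (Fdft1) and 0.981 (Hmgcs1), while Acat2 gave 0.118 and Ggps1 -0.118. These are descriptions, since the arrays share 3 groups and the differences between groups enter r. The 10 other named genes most like the mean of the 9 were Cyp51 (r = 0.968), Lss (0.939), Nsdhl (0.935), Dhcr7 (0.929), Snrpg (0.928), Rdh11 (0.928), Msmo1 (0.923), Psg16 (0.921), Erg28 (0.913) and Cenpm (0.912). Cyp51, Lss, Nsdhl, Dhcr7 and Msmo1 are enzymes of the later, sterol part of the pathway. Rdh11, a retinol dehydrogenase, fell in both comparisons, with log2 differences of -2.03 (limma adjusted p = 0.00705) and -1.51 (adjusted p = 0.0183).

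Past squalene, 12 sterol enzymes were tested. In HFHS vehicle 8 of the 12 fell, among them Hsd17b7 (log2 difference -1.18, limma adjusted p = 0.0125), Nsdhl (-2.19, 0.0148), Tm7sf2 (-0.92, 0.0217) and Lss (-1.59, 0.0259). Under pollutants 2 fell, Sc5d (-0.84, adjusted p = 0.0245) and Dhcr7 (-1.49, 0.0482). Over all genes 0.451% were called lower for the diet and 0.441% for the pollutants. All 12 had negative differences in both comparisons, against 54.5% and 51.8% of all genes, with medians of -1.36 and -0.80. In the direct comparison Tm7sf2 (-0.70, limma adjusted p = 0.0131) and Lbr (-0.34, 0.0473), both sterol C14 reductases, were lower in HFHS vehicle than under pollutants. There 2.3% of all genes were called lower.

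Upstream of the pathway, 1 of 6 genes listed for acetyl-CoA supply fell in each comparison with ST vehicle. Over all genes 0.451% and 0.441% were called lower. The gene was Acss2, which makes acetyl-CoA from acetate, with log2 differences of -1.76 (limma adjusted p = 0.0216) and -1.51 (adjusted p = 0.0345). At an unadjusted p under 0.05, 2 of the 6 were lower for the diet and 4 for the pollutants, against 7.1% and 6.27% of all genes. In the direct comparison 0 of the 6 passed and 0 were under an unadjusted p of 0.05, and citrate synthase, Cs, had the smallest p (0.22, adjusted p = 0.413).

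Of 10 genes of SREBP regulation and sterol uptake, 0 passed in limma in any comparison, with medians of -0.33 for the diet and -0.24 for the pollutants. At an unadjusted p under 0.05, 4 were lower for the diet and 3 for the pollutants, against 7.1% and 6.27% of all genes. In the direct comparison 1 was lower and 1 higher by that rule. There 10.6% of all genes were lower, and 18.3% were under that p in either direction. Insig2, which retains the SREBP complex in the endoplasmic reticulum, had the smallest p against ST vehicle, with differences of -0.78 (limma adjusted p = 0.0665) and -0.74 (adjusted p = 0.0679). Srebf1, which encodes SREBP-1, had the smallest p in the direct comparison (0.71, adjusted p = 0.114).

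Downstream on the side branches, 14 of 15 listed genes that use isoprenoid diphosphates were tested, a list that also holds Idi2 and 1 further enzyme of the pathway. None passed in limma in any comparison, and the medians were 0.04 and 0.00. Unadjusted p-values under 0.05 numbered 2 lower and 1 higher for the diet and 0 for the pollutants. In the direct comparison they numbered 3 lower and 2 higher. Over all genes 7.1%, 6.27% and 10.6% were lower by that rule in the 3 comparisons. In either direction the shares were 12.1%, 12.2% and 18.3%. Trit1, which puts an isopentenyl group on transfer RNA, had the smallest p for the diet (-0.35, adjusted p = 0.137). Rabggtb, part of the enzyme that puts geranylgeranyl groups on Rab proteins, had the smallest p for the pollutants (0.30, limma adjusted p = 0.486).

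Clock genes differed between the same groups. Of 12 tested, Per2 rose (1.63, limma adjusted p = 0.0258) and Arntl fell (-1.60, adjusted p = 0.0242) in HFHS vehicle. Under pollutants 5 rose and 2 fell, led by Arntl (-2.13, adjusted p = 0.00636), Per2 (1.85, 0.0157), Ciart (2.88, 0.0220) and Per1 (1.47, 0.0302). In the direct comparison Per1 was lower in HFHS vehicle (-1.02, adjusted p = 0.0359). Over all genes 0.236% were called higher and 0.451% lower for the diet, and 0.543% and 0.441% for the pollutants. In the direct comparison 2.3% of all genes were called lower. The part of the clock genes in the differences of the mevalonate enzymes was not tested.

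The tissue label was checked on 7 hepatocyte markers, which were abundant in all 13 livers, with summed linear levels of 1422 to 1723 times the 75th percentile in ST vehicle, 1328 to 1704 under pollutants and 1143 to 1694 in HFHS vehicle. Their mean log2 level was 6.87 to 6.92, 6.70 to 6.92 and 6.53 to 6.86 in these groups. By that measure every HFHS vehicle liver was below every ST vehicle liver. The diet difference was negative for 7 of 7 markers, against 54.5% of all genes, and the pollutant difference for 4 of 7, against 51.8%. The part of the hepatocyte markers in the differences of the 9 genes was not tested. Pancreatic acinar transcripts stood out in 3 HFHS vehicle livers. The summed level of 9 tested acinar markers was 6.56 and 7.42 in HFHS vehicle replicates 1 and 2, and 290, 123 and 1202 in replicates 3, 4 and 5, against 6.55 to 7.97 in ST vehicle and 6.20 to 9.47 under pollutants. All 9 were well above background in the 3 livers, but also in ST vehicle replicate 1 and ST pollutants replicates 1 and 4. In each of the remaining livers 6 to 8 of the 9 were. Against ST vehicle, 7 of 9 were higher in HFHS vehicle at an unadjusted p under 0.05, with 0 passing in limma after adjustment. Of all genes 12.1% were under that unadjusted p in either direction. Replicate 3 had the highest value of its group for 5 of the 9 mevalonate transcripts and replicate 4 the lowest for all 9. With these 3 livers left out, the 7 enzymes had diet differences between -2.09 and -1.05, none of which passed with 2 HFHS vehicle arrays remaining.

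Of 7 hepatocyte, 3 adipocyte, 4 cholangiocyte, 4 skeletal muscle, 5 endothelial, 6 macrophage and 5 T and B cell markers tested, 0 passed in limma in any of the 3 comparisons. At an unadjusted p under 0.05, 1 hepatocyte and 1 cholangiocyte marker were lower for the diet and 1 cholangiocyte marker for the pollutants. Of all genes 7.1% and 6.27% were lower by that rule. In the direct comparison 2 hepatocyte, 2 cholangiocyte and 3 skeletal muscle markers were lower in HFHS vehicle at an unadjusted p under 0.05. By the same rule 9 of 9 acinar markers were higher. Of all genes 10.6% were lower there, and 18.3% were under that p in either direction. With HFHS vehicle replicates 3, 4 and 5 left out, the direct difference of Acat2 was 0.93 (limma adjusted p = 0.0468). The part of these other markers in the differences of the 9 genes was not tested. The median log2 differences for the diet and the pollutants were -0.16 and -0.05 for hepatocytes, -0.61 and -0.56 for adipocytes, -0.61 and -0.17 for cholangiocytes, and -2.17 and 0.42 for skeletal muscle. They were 0.08 and -0.10 for endothelial cells, 0.06 and 0.06 for macrophages, and -0.04 and -0.16 for T and B cells. The summed muscle signal varied between livers, from 0.127 to 5.18 in HFHS vehicle, 0.348 to 3.70 in ST vehicle and 0.508 to 5.65 under pollutants. It was 5.18 in HFHS vehicle replicate 3 and no more than 0.322 in the others of that group. Under pollutants it was 5.41, 5.65 and 5.49 in replicates 1, 2 and 4, and 0.508 and 0.610 in replicates 3 and 5.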

How the data were processed

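Liver RNA of 13 mice had been hybridised to one-colour Agilent arrays. Intensity values were deposited as scanner output of Agilent Feature Extraction 11.5.1.1, per the file headers; the processed signal there is background-subtracted and not scaled between arrays. The authors' deposited table of log2 values (26082 probes; limma is the tool that the submitters' processing notes name) served as an alternative; its 13 columns each matched their own array best. Probe positions are on mm9, as the scanner files give them.

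The log2 processed signal minus each array's 75th percentile was used. A probe was kept where all arrays of 1 group or more had it well above background (25028 of 39429), the brightest probe stood for each gene, and 19513 genes were tested, 15736 of them with a symbol. The 3 groups, taken from the sample labels, were fitted together with limma 3.58.1 (R 4.3.3; lmFit and eBayes, Benjamini-Hochberg adjustment, threshold 0.05). The fit alone was tested on simulated data, with independent noise for each gene and no slide effect. The check was that planted fold changes were recovered on average. The other steps were not tested that way. Alternatives were another scaling, background correction, filter, probe rule, source of values, block for slide or replicate number, left-out arrays, and a fit of the 2 groups compared.

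The genes named beside the 9 are, from each of 6 pathway lists, up to 4 called genes of smallest p per comparison (or the 1 of smallest p), and the 10 genes most like the mean of the 9. These members, lists and 8 marker lists were chosen with earlier results of these data known. Acat3, Idi2 and Rdh11 were looked up after values were seen. The results of 1 of the lists, and 1 gene of another, are not reported here. Promoter sequences are from RefSeq, build GRCm38.p6.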

Additional observations from a re-analysis of the deposited data

Results flagged for a closer look

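Dixon's test of the extreme value was run on the brightest and other probes of the 9 genes in the groups of 5 arrays, 30 groups of values in all, and marked 1. The brightest Pmvk probe read 2.74 (log2 level) in HFHS vehicle replicate 4, while the other 4 livers of that group lay between 3.34 and 3.57. Chance marks about 1 in 20 such groups. The same liver was the lowest of its group for all 9 genes.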

How the results depend on the processing

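Of 675 values recomputed for single genes (9 genes, 3 comparisons, 25 alternatives), 572 kept their sign and their side of the threshold, 90 lost the call, 4 gained one and 9 changed sign. The main counts of genes called were 6 (diet), 3 (pollutants) and 1 (direct comparison), and only these could lose a call. For the pollutants, Acat2, Hmgcs1 and Mvk kept theirs in 21, 10 and 9 of 25 alternatives. For the diet, calls were kept in 5 (Mvk) to 22 (Hmgcs1) of 25, and Acat2 kept its direct call in 23. Many signs could not change. Another filter, a fit of 2 groups or a left-out array of the group not compared gave the same differences. For the pollutants the count was 1 with median scaling, 1 without a filter on dim probes, 1 with slide as a block and 0 with normexp. In the direct comparison it was 0 with normexp. Without the arrays of slide 1 all 3 counts were 0. Without HFHS vehicle replicates 3, 4 and 5, and with only the 2 groups compared, the diet count was 0. Leaving out 1 array at a time gave 1 to 7 genes for the diet, 1 to 5 for the pollutants and 1 to 1 in the direct comparison. Of the 15 probes, 8, 4 and 1 were called; normexp gave 3, 0 and 0, slide as a block 1 for the pollutants, and leaving out 1 array 1 to 10, 0 to 6 and 1 to 1. With the replicate number as a block, 4 genes and 5 probes were called for the diet and 0 genes and 0 probes for the pollutants (Acat2 limma adjusted p = 0.0557). Same-numbered arrays correlated in their deviations from the group means between -0.15 and 0.56, -0.17 and 0.42, and -0.02 and 0.52 in the 3 comparisons. In these, 4 of 6, 3 of 6 and 6 of 10 arrays correlated best with their own number. The labels do not say that the numbers pair the mice, and the main fit used neither number nor slide as a block. The counts do not show that arrays of one number or slide were independent. Same-numbered arrays also shared a slide, except that ST vehicle replicate 3 lay on slide 5. That array correlated at -0.15 and -0.17 with HFHS vehicle and ST pollutants replicate 3, on another slide. With HFHS vehicle and ST pollutants replicate 5, on its own slide, it correlated at 0.26 and 0.27. The sign changes were at values near 0. For Ggps1 under the diet they were -0.0054 with the mean of probes, -0.0096 without HFHS vehicle replicate 3, -0.0047 without ST vehicle replicate 2 and -0.018 without HFHS vehicle replicates 3, 4 and 5. For Mvk in the direct comparison they were 0.0032, 0.12 and 0.06 without HFHS vehicle replicates 2, 4 and 5, 0.02 without ST pollutants replicate 2 and 0.18 without HFHS vehicle replicates 3, 4 and 5. Over single left-out arrays Ggps1 reached 0.086 and Mvk -0.16. The cause of these changes was not tested. Differences within slides carry no count of calls. The dim probes of Hmgcs1 and Fdft1 were not well above background on 8 and 5 of the 10 treated arrays, which limits their values there.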
